A study of Mus musculus with 7 samples.

Results

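Ifitm1, Ifitm2, Ifitm3, Ifitm6 and Ifi27l2a were followed across the cells that had entered or lived in the inflamed central nervous system (CNS) of mice. These 5 of the 27998 genes listed for all 7 libraries were chosen by symbol and not by a measured value, so every one of them is reported. The mice were of the B6 strain and carried either the labelled Lag3wt genotype (WT) or a LAG3 deficient genotype that the labels write as Lag3Floxed (Lag3KO). All of them, controls included, had received the MOG35-55 peptide of myelin oligodendrocyte glycoprotein to induce experimental autoimmune encephalomyelitis (EAE), a model of multiple sclerosis, and were age and sex matched. CNS cells were taken when the disease peaked, from mice with matched scores, and were enriched on beads for CD4 or for CD45, the surface protein of leukocytes. Single cells were then barcoded with the 10x Genomics 3′ v2 kit, with 5000 cells as the goal. The 4 CD4 libraries were 2 WT and 2 Lag3KO, and the 3 CD45 libraries were 2 labelled WT and 1 Lag3KO. Each group had 5 mice, without a label that ties a mouse to a library. The sources used here do not give the Cre line or the deleted exons. Replicate numbers were given in accession order. Nothing says that the libraries came from separate animals, so the p-values below measure only the spread between these libraries.

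The Ifitm genes encode small interferon-induced transmembrane proteins that sit in the plasma and endosomal membranes and hinder enveloped viruses from fusing with the cell. Ifitm3 is the best known antiviral member, Ifitm1 and Ifitm2 are its close relatives, and Ifitm6 is a less studied member of the same gene cluster. Ifi27l2a belongs to a different family of small interferon-induced proteins that are found at mitochondria and at the nuclear envelope. Many genes induced by type I interferon carry a DNA element built of repeated GAAA blocks near their start, and interferon signalling is active in the CNS during EAE.

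The promoters of the Ifitm genes are shown because the members share a locus and differ in the number of such blocks. All 4 Ifitm members lie on chromosome 7 of GRCm38 and are protein coding in the GENCODE M21 annotation: Ifitm2 at 140954837 to 140955987 on the minus strand, Ifitm1 at 140967221 to 140969825 on the plus strand, Ifitm3 at 141009586 to 141010770 on the minus strand and Ifitm6 at 141015699 to 141017924 on the minus strand. Ifi27l2a lies on chromosome 12 at 103442167 to 103443680 on the minus strand. The sequences below are the RefSeq GRCm38.p6 promoters from 120 bases before to 30 bases after the start site, 5′ to 3′ on the strand of the gene, and capitals mark the motif GAAANNGAAA searched on both strands.
Ifitm1 (chr7:140967956-140968105, plus strand): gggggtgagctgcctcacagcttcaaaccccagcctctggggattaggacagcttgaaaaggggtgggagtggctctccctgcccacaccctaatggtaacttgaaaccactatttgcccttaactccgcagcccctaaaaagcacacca
Ifitm2 (chr7:140955932-140956081, minus strand): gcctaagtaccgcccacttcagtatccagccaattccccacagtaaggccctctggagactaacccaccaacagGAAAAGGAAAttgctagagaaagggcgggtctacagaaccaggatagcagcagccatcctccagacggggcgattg
Ifitm3 (chr7:141010715-141010864, minus strand): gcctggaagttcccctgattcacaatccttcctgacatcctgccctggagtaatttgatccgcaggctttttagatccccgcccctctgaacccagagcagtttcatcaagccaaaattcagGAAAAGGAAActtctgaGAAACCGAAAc
Ifitm6 (chr7:141016863-141017012, minus strand): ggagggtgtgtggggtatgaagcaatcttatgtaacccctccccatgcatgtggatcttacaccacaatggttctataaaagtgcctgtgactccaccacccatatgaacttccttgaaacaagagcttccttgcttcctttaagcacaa
Ifitm3 held 2 copies just after its start site (bases 3 to 12 and 20 to 29), Ifitm2 held 1 copy before it (bases -46 to -37), and these letters were not in the windows of Ifitm1 and Ifitm6. The RefSeq start sites of Ifitm1 and Ifitm6 lie 855 and 1032 bases inside the GENCODE genes, whose own 5′ ends were not searched, and those of Ifitm2 and Ifitm3 lie 26 bases inside. Among all 32851 promoter windows of 300 bases, 3.44% held the motif. Of 40 genes of a type I interferon list, 30 had such a window and 18 of these held the motif. A match is a string of letters and was not tested as a binding site.

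The libraries held 1428 to 2517 barcodes and 4585251 to 18940186 unique molecular identifiers (UMIs), with medians of 2086.5 to 2599.5 UMIs per barcode in the CD4 and 5683 to 6407 in the CD45 libraries. Pairs of libraries shared 0 to 12 barcodes. Values are given throughout in the order WT 1, WT 2, Lag3KO 1 and Lag3KO 2 for the CD4 libraries and WT 1, the library labelled WT 2 and Lag3KO 1 for the CD45 libraries. Lag3 itself had 289, 107, 1 and 0 UMIs in the CD4 libraries and 304, 4 and 2 in the CD45 libraries. The library labelled WT_CD45 2 therefore went against its label and is called by its label below. Haemoglobin UMIs stood apart in 2 CD4 libraries, at 0, 60174, 0 and 17158. Of 13411 kept cells, those with T cell and myeloid transcripts together were set apart, 2.25 to 4.71% in the CD4 and 16.9 to 21.1% in the CD45 libraries. Clusters of non-T cells in which at least 30% of cells were of that kind were set apart whole, which added 1.59 to 2.36% and 4.69 to 9.49%. In the CD4 libraries this was 1 cluster, led by Ccl17, H2-Eb1 and H2-Aa.

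Cells were clustered without the Ifitm and Ifi27 genes, and clusters were named from markers as regulatory T cell-like (Treg), conventional CD4 T cell-like (Tconv), monocyte-like and so on, with the suffix left off below and subclasses called by a leading gene. The class called cDC2 held cDC2-like or monocyte-derived dendritic cells, which were not separated. A Foxp3 UMI was found in only 3.07, 3.15, 2.55 and 3.71% of Tregs of the CD4 libraries and in 18.2, 64.7 and 2.70% in the CD45 libraries. Ikzf2, a factor of Tregs, had a UMI in 58.7 to 74.8% of Tregs in the CD4 and 90.9 to 92.6% in the CD45 libraries, against 3.45 to 12% of Tconv over all libraries. Levels are UMIs of a gene per 1000000 UMIs of a class in a library (CPM), for libraries with at least 20 cells of the class. Because the classes come from these cells, differences between classes are descriptions. A class is called higher or lower than another where a gene was at least 2-fold apart in every library on log2(CPM + 1) and reached a mean of 10 CPM in either class.

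Ifitm3, which restricts virus entry from endosomes, was highest in the monocyte and cDC2 classes. In monocytes it was at 6006, 5578 and 5502 CPM (5695 ± 271, SD, n = 3), and in cDC2 at 6361, 5174 and 5839 CPM (5792 ± 595, SD, n = 3). The values of both classes overlapped, and their log2 ratio was 0.02 ± 0.11 (SD). After each cell was thinned to 1000 UMIs, an Ifitm3 UMI was found in 97.5, 96.2 and 96.6% of monocytes, against 12.9 and 6.0% of gamma delta T cells of the WT 1 and Lag3KO 1 CD45 libraries, the class with the lowest level. Median depths before thinning were 4712 to 5541 UMIs for monocytes and 2617 to 3225 for those gamma delta T cells, where the unthinned shares were 99.8 to 100% and 25.8 and 12%.

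Among the subclasses of the CD45 libraries, the Cxcl10-high monocytes led for Ifitm3 with 7967, 8262 and 7833 CPM, above every value of the next class, the Cd7-high dendritic cells at 6937, 6469 and 5924 CPM. Cxcl10 is a chemokine induced by interferon, and the transcripts of the 40-gene interferon list took 134, 182 and 94.8 of 10000 UMIs in the Cxcl10-high and 47.5, 51.9 and 44.6 in the Ccr2-high monocytes. Ccr2 is the receptor by which monocytes leave the marrow and enter tissue. Ccr2-high monocytes had 5192, 4335 and 4560 CPM of Ifitm3, lower than the Cxcl10-high class in each library by less than 2-fold. In macrophages Ifitm3 was lower again, at 2450, 1961 and 2211 CPM.

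The gap between Ccr2-high monocytes and Arg1-high macrophages covered 4 of the 5 members. Ccr2-high monocytes were higher than Arg1-high macrophages, named for the arginase of macrophages that take part in repair, for Ifitm1 (log2 ratio 2.90 ± 0.26, SD, n = 3), Ifitm3 (1.41 on average), Ifitm6 (3.01 ± 0.68) and Ifi27l2a (1.63 ± 0.26), where 1.6% of 6747 genes passed the same rule. Ifitm2 was not 2-fold apart in every library. The means of Nos2-high macrophages lay between those of these classes for all 5 members. Ifitm3 had means of 4696 CPM in Ccr2-high monocytes, 3382 in Nos2-high and 1784 in Arg1-high macrophages. For Ifi27l2a they were 2309, 1811 and 752 CPM, and for Ifitm1 1099, 549 and 157 CPM. Monocytes against Tconv gave 3 higher members, Ifitm2 (2.68 ± 0.54), Ifitm3 (3.35 ± 0.46) and Ifitm6 (343, 274 and 358 against 4.21, 2.69 and 0 CPM), beside 13.0% of 7606 genes. Ifitm1 (1.61 ± 0.87) and Ifi27l2a (0.62 ± 0.26) were above Tconv in all 3 libraries without passing the rule.

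**Figure D1:**
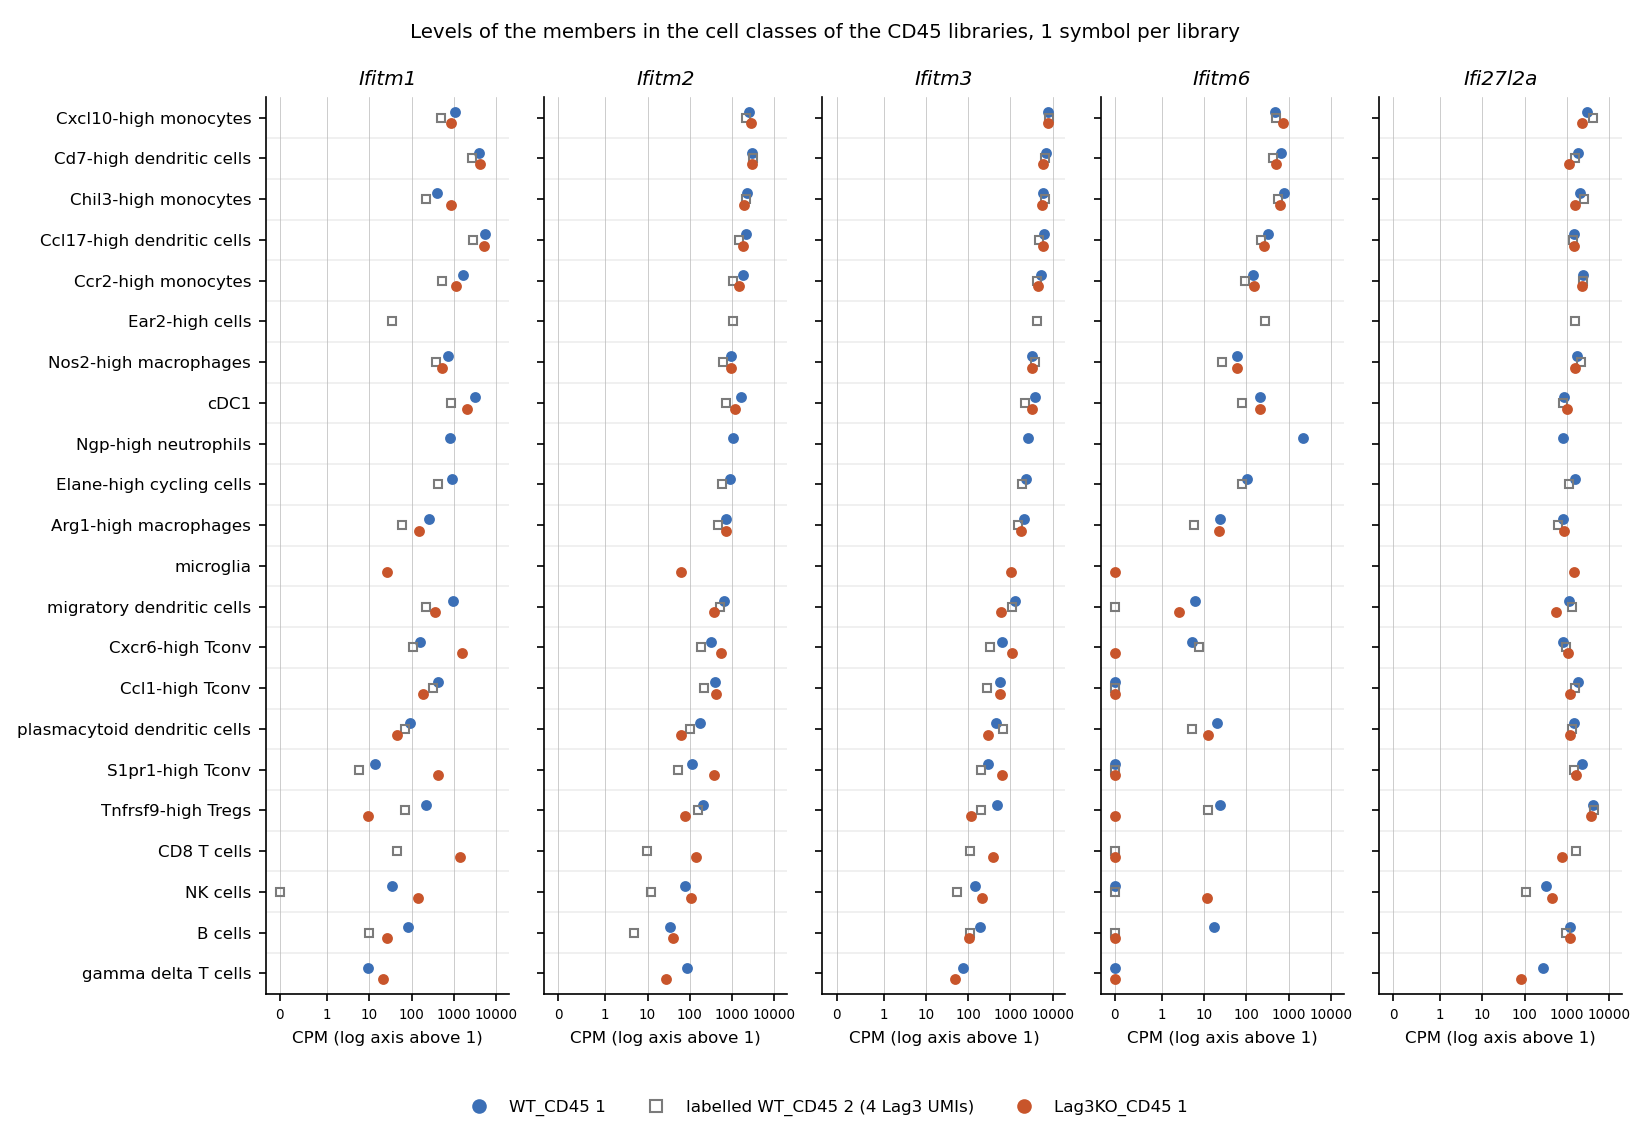
CPM of each member (horizontal axis, log scale above 1) in the classes of the CD45 libraries, ordered by mean Ifitm3 level, with 1 symbol per library and only libraries with at least 20 cells of a class. Ifitm3 runs from 7833 CPM or more in Cxcl10-high monocytes to under 100 CPM in gamma delta T cells, while Ifi27l2a has its highest mean in Tnfrsf9-high Tregs.

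Ifitm2, the nearest neighbour of Ifitm1 at the locus, had its highest mean of all classes in Cxcl2-high neutrophils of the CD4 libraries. It was at 3478 to 4180 CPM there (mean 3836). Among the CD45 libraries it peaked in a dendritic cell subclass. Cd7-high dendritic cells had 2900, 3067 and 2935 CPM, and all 3 values lay above those of the Cxcl10-high monocytes at 2574, 2120 and 2726 CPM. Over whole classes cDC2 (2094 ± 266 CPM, SD, n = 3) and monocytes (2051, 1469 and 1821 CPM) overlapped. Macrophages followed with 798, 506 and 793 CPM.

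Ifitm1, whose human counterpart acts mainly at the cell surface, had its highest levels in Cxcl2-high neutrophils of the CD4 libraries and, among the CD45 libraries, in cDC2. In cDC2 it was at 5114, 2827 and 4776 CPM (4239 ± 1234, SD, n = 3), in cDC1, the cross-presenting dendritic cells, at 3211, 869 and 2055 CPM, and in monocytes at 1277, 461 and 1007 CPM. The middle value was the lowest of the 3 in each of these classes and comes from the library labelled WT_CD45 2. Ifitm1 was the only member called higher in cDC2 than in monocytes (log2 ratio 2.29 ± 0.31, SD, n = 3), beside 3.42% of 6820 genes. No member differed by the rule between cDC2 and cDC1, where 2.46% of genes were higher and 2.01% lower in cDC2. Likewise, none differed between the Ccl17-high and Cd7-high dendritic cells, where 2.38% of genes were higher and 2.27% lower in the former.

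Migratory dendritic cells, which have switched on Ccr7 and leave tissue for lymph nodes, had little of the Ifitm transcripts. All 4 Ifitm members were lower there than in cDC2, beside 11.2% of 7016 genes. Ifitm1 was at 960, 221 and 362 CPM (log2 ratio to cDC2 -3.27 on average), Ifitm2 at 660, 518 and 375 CPM (-2.04), Ifitm3 at 1270, 1078 and 598 CPM (-2.62) and Ifitm6 at 6.17, 0 and 2.62 CPM. Ifi27l2a, at 1087, 1339 and 550 CPM, was not 2-fold apart in every library.

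Plasmacytoid dendritic cells, the cells best known for making type I interferon, were lower than cDC1 for the same 4 members, beside 4.24% of 7577 genes. The log2 ratios averaged -4.72 for Ifitm1, -3.39 for Ifitm2, -2.75 for Ifitm3 and -3.66 for Ifitm6. Their levels were 92.9, 70.9 and 45.4 CPM of Ifitm1 and 465, 651 and 293 CPM of Ifitm3. Ifi27l2a showed no such gap: 1459, 1302 and 1205 CPM in plasmacytoid dendritic cells against 847, 810 and 1024 CPM in cDC1.

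Over whole classes, Ifitm6 was highest in neutrophils and scarce in T cells. In neutrophils of the CD4 libraries it was at 2861, 2036, 1861 and 2360 CPM (2280 ± 439, SD, n = 4) and in those of the WT 1 CD45 library at 2161 CPM. Neutrophils were 3.99% of the cells of the CD4 libraries and held 63.6% of their Ifitm6 UMIs. In the CD45 libraries, monocytes held 2533 Ifitm6 UMIs and cDC2 1165, more than the 654 of the WT 1 neutrophils. Mean levels there were 334 CPM in cDC2, 325 CPM in monocytes and 166 CPM in cDC1. Tconv had 18 Ifitm6 UMIs in all 4 CD4 libraries and 4 in the 3 CD45 libraries, or 1.00 to 2.52 and 0 to 4.21 CPM. In CD8 and gamma delta T cells the libraries with at least 20 cells had none. An Ifitm6 UMI was seen in 27.4 to 44.4% of neutrophils of the CD4 libraries, at median depths of 858 to 1201 UMIs, against 0.266 to 0.549% of Tconv at 1824 to 2305 UMIs.

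The neutrophil subclasses split Ifitm1 and Ifitm6 in opposite ways. Ngp-high neutrophils, with transcripts of granule proteins made before release from the marrow, reached 20 cells in 1 library of each sort, with 4390 CPM of Ifitm6 and 1611 CPM of Ifitm1 in the WT 1 CD4 library and 2161 and 813 CPM in the WT 1 CD45 library. Cxcl2-high neutrophils, with transcripts of a chemokine that activated neutrophils make, had 397, 424, 434 and 335 CPM of Ifitm6 but 10652, 11565, 10115 and 9332 CPM of Ifitm1. This was the highest Ifitm1 level of any class, and its 4 values did not overlap with those of any other class of the CD4 libraries. With 1 Ngp-high library per sort the split was not tested.

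Against the monocytes or macrophages of the same CD4 libraries, neutrophils were higher for Ifitm1 (log2 ratio 2.81 ± 0.80, SD, n = 4) and Ifitm6 (3.77 ± 0.72), beside 4.37% of 7109 genes. Ifitm2 was at 3105, 2889, 3618 and 3448 CPM in neutrophils and Ifitm3 at 3125, 3345, 4393 and 4274 CPM. Neutrophils were higher than Tconv for the 4 Ifitm members, beside 7.77% of 7685 genes, and for Ifi27l2a the log2 ratio was -0.41 ± 0.42. Microglia, the resident macrophages of the CNS, were lower than the monocytes or macrophages for the 4 Ifitm members, beside 4.82% of 7816 genes. Ifitm3 in microglia was at 1276, 764, 1435 and 1327 CPM, and Ifitm1 at 31.4, 7.28, 28.2 and 36.8 CPM.

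Monocytes themselves varied most in Ifitm6. Chil3-high monocytes, with a chitinase-like protein of inflammatory monocytes, had 777, 563 and 621 CPM, and Cxcl10-high monocytes 482, 502 and 724 CPM, against 144, 94.6 and 149 CPM in the Ccr2-high class. Both were called higher than the Ccr2-high class, by log2 ratios of 2.34 ± 0.26 and 2.13 ± 0.35 (SD, n = 3), and no other member was, beside 2.04% of 6799 and 3.02% of 6695 genes. In macrophages Ifitm6 was at 34.9, 10.2 and 34.0 CPM.

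Ifi27l2a followed another order. Of the classes of the CD45 libraries it was highest in Tregs, at 4228, 4308 and 3722 CPM (4086 ± 318, SD, n = 3), which did not overlap with the pooled monocytes at 2431, 2720 and 2125 CPM. The Cxcl10-high subclass of monocytes, at 2270 to 4017 CPM, did overlap with Tregs. Interferon Tconv, described below, had only 9, 11 and 6 cells in the CD45 libraries and were not ranked there as a subclass. Tconv followed at 1705, 1438 and 1576 CPM, macrophages had 1099, 947 and 1050 CPM, and NK cells were near the bottom at 328, 109 and 432 CPM. In the CD4 libraries Tregs had 3025, 4518, 3117 and 6202 CPM (4215 ± 1490, SD, n = 4), and these overlapped with the monocytes or macrophages at 1054, 4716, 2145 and 4383 CPM. Tregs were 23.3% of the CD4-sorted cells and held 39.6% of their Ifi27l2a UMIs. After thinning to 1000 UMIs, 83.0 to 94.1% of Tregs of the CD4 libraries and 88.2 to 97.0% of those of the CD45 libraries had an Ifi27l2a UMI, against 6.82 to 13.0% of NK cells. The unthinned shares were 90.2 to 97.5%, 100% and 18.2 to 35.5%, at median depths of 2424 to 3222, 3653 to 5204 and 3111 to 3368 UMIs.

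Within T cells, Tregs and Tconv differed in opposite directions for the 2 families. Ifi27l2a was above Tconv in Tregs of 7 of 7 libraries, with a log2 ratio of 1.15 ± 0.26 (SD, n = 7). Ifitm2 (-1.29 ± 0.78) and Ifitm3 (-1.34 ± 0.76) were below Tconv in Tregs of 7 of 7 libraries. Ifitm1 (-2.07 ± 1.86) was below Tconv in 6 libraries and at 225 CPM in both classes of the WT 1 CD45 library. No member was 2-fold apart in every library, where 0.424% of 7306 genes were higher and 0.219% lower in Tregs. When single cells were instead called Treg or Tconv by a gate on marker UMIs, the Ifitm ratios changed sign, to 2.47, 1.34 and 0.66 for Ifitm1, Ifitm2 and Ifitm3, and that of Ifi27l2a was 0.26. That gate called 43.2% of the Cxcr6-high and 72.7% of the Ccl1-high Tconv of the CD4 libraries Treg, and only 16.9 and 5.36% of them Tconv, whereas 2.37 and 18.9% had a Foxp3 or Ikzf2 UMI. With Tregs called by a Foxp3 or Ikzf2 UMI alone, all 4 directions were those of the clusters. Ikzf2 also led the Treg clusters, and 59.2 to 80.4% of the cells of the Treg subclasses had such a UMI. This call therefore takes many of the same cells and is no independent check.

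Among the Tconv subclasses of the CD4 libraries, the members separated cells by state. Tcf7-high Tconv, with a factor of resting and memory-like T cells, had 36.7, 55.3, 122 and 61.4 CPM of Ifitm3, and Cxcr6-high Tconv, with a homing receptor of tissue effector T cells, had 878, 586, 1044 and 1115 CPM. Cxcr6-high Tconv were higher for Ifitm1, Ifitm2 (3.79 ± 0.99, SD, n = 4) and Ifitm3 (3.79 ± 0.67), beside 2.55% of 7293 genes. For Ifi27l2a they were lower (-1.99 ± 0.29), beside 1.69% of genes, with 420, 769, 781 and 1098 CPM against 2196, 3137, 2655 and 3787 CPM in the Tcf7-high class. Ifitm1 was at 303, 86.7, 302 and 515 CPM in the Cxcr6-high class and at 0, 3.07, 21 and 11.5 CPM in the Tcf7-high class. Ifitm2 was at 590, 455, 678 and 955 CPM and at 66.3, 27.6, 88.2 and 26.8 CPM.

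Interferon Tconv, a subclass led by Ifit and Isg15 transcripts, was the T cell class in which Ifi27l2a and Ifitm3 were high together. The interferon list took 154 to 181 of 10000 UMIs there, 29.4 to 39.3 in the Tcf7-high and 20.3 to 25.6 in the Cxcr6-high class of the CD4 libraries. Ifi27l2a was at 4817, 7057, 5717 and 7894 CPM, the highest mean of any class in the CD4 libraries, and Ifitm3 at 966, 958, 1656 and 1077 CPM. Against Tcf7-high Tconv, Ifi27l2a was higher by a log2 ratio of 1.12 ± 0.05 (SD, n = 4), Ifitm3 by 4.16 ± 0.39 and Ifitm2 by 2.60 ± 0.39, beside 2.14% of 7294 genes. The clustering used other interferon genes, so this is a description of that class. Ifitm1 was not among them, at 483, 33.0, 0 and 25.2 CPM, and 36 of the 40 UMIs of the first library lay in 1 cell.

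The Treg subclasses of the CD4 libraries differed too. Nfkbiz-high Tregs had 189, 244, 400 and 358 CPM of Ifitm3, and Tnfrsf9-high Tregs, with a costimulatory receptor of activated cells, 54.8, 27.8, 57.6 and 84.5 CPM. Nfkbiz-high Tregs were higher for Ifitm1 (2.28 ± 0.55, SD, n = 4) and Ifitm3 (2.43 ± 0.61), beside 0.379% of 7393 genes. For Ifi27l2a the Tnfrsf9-high class had the higher value in each library, 3801, 5580, 4358 and 7266 against 2551, 4090, 2636 and 5737 CPM, a gap under 2-fold.

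**Figure D2:**
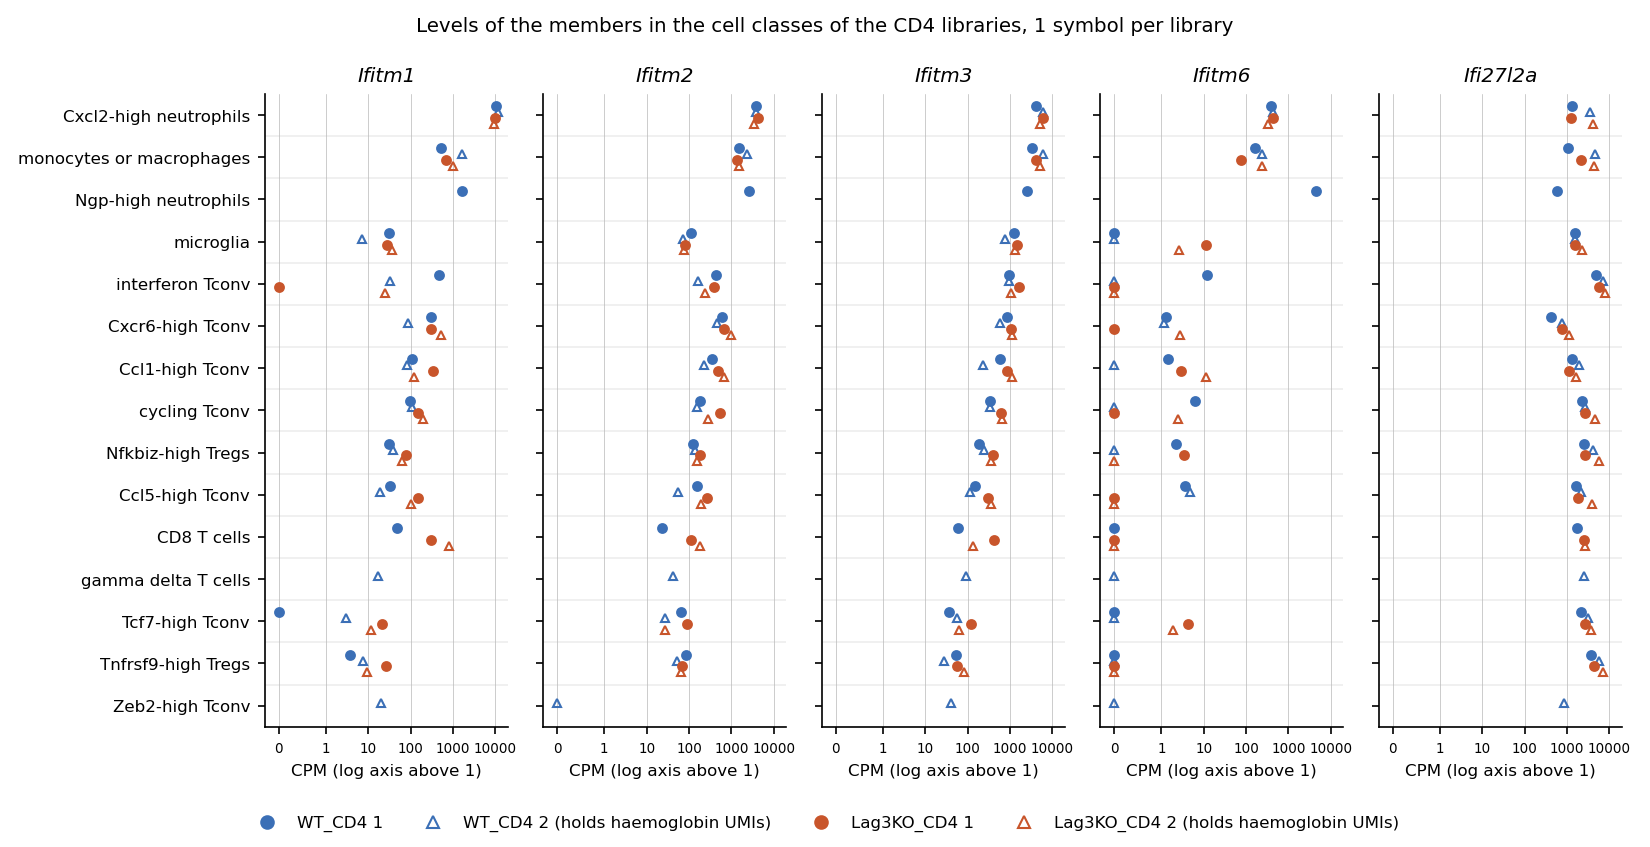
CPM of each member (horizontal axis, log scale above 1) in the classes of the CD4 libraries, ordered by mean Ifitm3 level, with 1 symbol per library and only libraries with at least 20 cells of a class. Open triangles are the 2 libraries with haemoglobin UMIs, which lie to the right of both other libraries for Ifi27l2a in 8 of 11 classes.

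In the full order of classes most neighbours were not apart. Over the 14 neighbouring pairs of the CD4 libraries, the ranges over libraries overlapped in 10 (Ifitm2) to 13 (Ifi27l2a) pairs, and over the 21 pairs of the CD45 libraries in 15 (Ifitm3) to 19 (Ifitm1 and Ifi27l2a) pairs. Transcripts of myeloid cells in T cell droplets were measured beside these levels. Lyz2, a lysozyme gene of monocytes and macrophages, was at 421, 353 and 280 CPM in Tconv of the CD45 libraries, or 1.01 to 2.00% of its level in monocytes of the same libraries. Ifitm3 in these Tconv was at 7.17 to 13.6%, Ifitm2 at 11.1 to 23.2% and Ifitm1 at 17.6 to 59.1% of the level in monocytes. Monocytes are not the class with the most Ifitm1, which had a mean of 4239 CPM in cDC2 and 915 CPM in monocytes. The part of transcripts from other cells in these levels was not tested. Gamma delta T cells had 1.13 to 2.28% for Lyz2 and 0.888 to 1.28% for Ifitm3. In the CD4 libraries Lyz2 of Tconv was at 0.0352 to 0.0712% of the monocytes or macrophages and Ifitm3 at 6.74 to 19.7%. For Tregs of the CD45 libraries the ranges were 1.03 to 3.21% for Lyz2 and 2.08 to 8.04% for Ifitm3, and for NK cells 0.952 to 2.21% and 0.979 to 3.93%.

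Ifitm1 in T cells came from few cells. In Cxcr6-high Tconv there were 235, 74, 182 and 183 Ifitm1 UMIs in the CD4 and 31, 29 and 188 in the CD45 libraries. The 5 cells with the most Ifitm1 held 43.0, 36.5, 39.0 and 60.7% of these in the CD4 and 71.0, 86.2 and 97.3% in the CD45 libraries, where 1 cell of the Lag3KO 1 library had 76 UMIs. Ifitm3 of the same class was spread wider, with a UMI in 43.0 to 65.9% of cells and 12.8, 15.4, 11.9 and 29.3% of UMIs in the top 5 cells of the CD4 and 37.6, 34.1 and 61.5% in those of the CD45 libraries. CD8 T cells of the Lag3KO 1 CD45 library had 146 Ifitm1 UMIs, all in 5 of 25 cells, and their level there of 1379 CPM stood against 44.8 CPM in the library labelled WT_CD45 2. In S1pr1-high Tconv of the Lag3KO 1 CD45 library, 60 of 67 Ifitm1 UMIs lay in 1 cell. Another library held such cells: in Ccl1-high Tconv of the library labelled WT_CD45 2, 47 of 83 lay in 1 cell and 97.6% in 5.

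**Figure D3:**
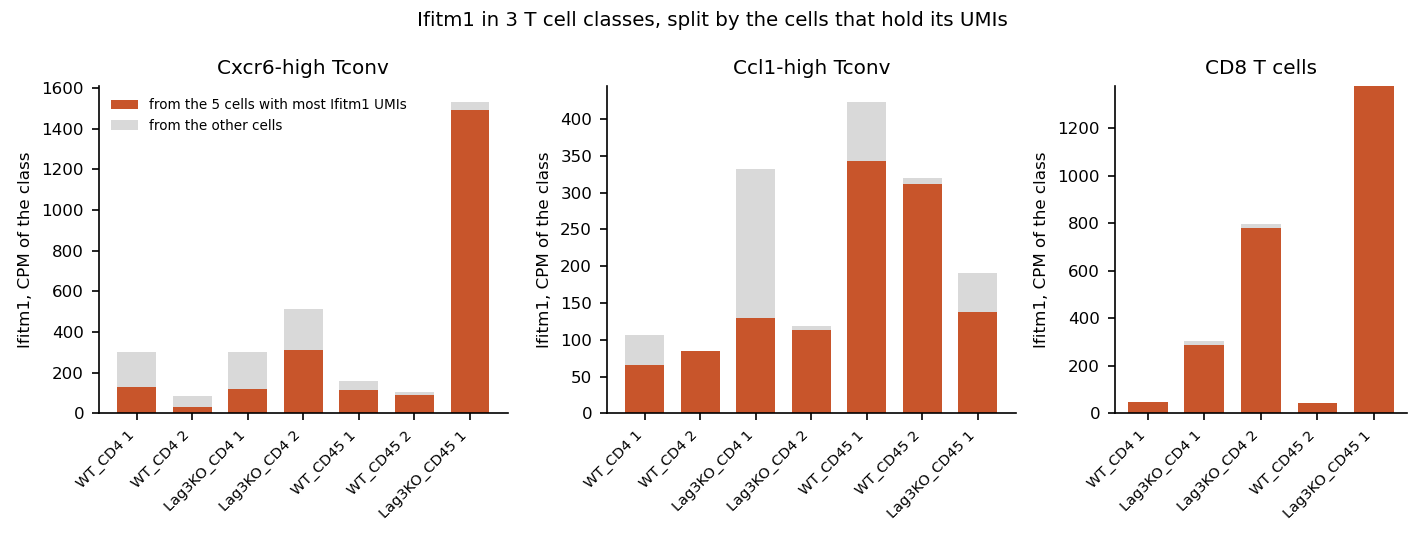
Ifitm1 level of Cxcr6-high Tconv, Ccl1-high Tconv and CD8 T cells in each library with at least 20 cells (vertical axis, CPM of the class, from 0), split into the part from the 5 cells with the most Ifitm1 UMIs (orange) and the part from all other cells (grey). In the Lag3KO 1 CD45 library, 97.3% of the Ifitm1 UMIs of Cxcr6-high Tconv and all of those of CD8 T cells come from 5 cells, and so do 97.6% of those of Ccl1-high Tconv in the library labelled WT_CD45 2. The bar named WT_CD45 2 is the library whose label its Lag3 count goes against.

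Over the Cxcr6-high and Ccl1-high Tconv and CD8 T cells of the CD4 libraries, 79 cells had at least 5 Ifitm1 UMIs and 1367 had fewer. The 79 cells held medians of 3793 UMIs, 6 Ifitm3 and 5 Ifitm2 UMIs, the others 2687, 1 and 0. A Cd3 UMI was found in 100% and 99.1%, a Cxcr6 UMI in 92.4 and 78.6%, a Lyz2 UMI in 6.33 and 3.22% and an S100a8 UMI, of neutrophils, in 3.80 and 6.14%. The 15-gene myeloid list had a median of 2 UMIs in the first and 1 in the other cells. Ifi27l2a had a median of 0 UMIs in both. In the CD45 libraries 25 such cells and 393 others had medians of 4 and 1 Ifitm3 UMIs, and Lyz2 was found in 72.0 and 72.5%. Depth differs between these cells, and its part in the result was not tested.

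The 2 CD4 libraries with haemoglobin UMIs had the highest Ifi27l2a. Both lay above both others in 8 of 11 classes, where the same order held for 18.2% of all gene and class pairs tested, and for 12.8 to 20.9% of genes depending on the class. For Ifitm1 and Ifitm3 it held in 1 class, the monocytes or macrophages, and for Ifitm2 in none. The mean log2 ratio of the libraries with to those without haemoglobin was 0.95 in Tconv, 0.80 in Tregs and 1.51 both in neutrophils and in monocytes or macrophages. In Cxcl2-high neutrophils Ifi27l2a was at 1351, 3533, 1249 and 4052 CPM. These libraries are 1 WT and 1 Lag3KO. Interferon Tconv were 3.39, 9.31, 4.69 and 9.31% of the Tconv of the CD4 libraries. What else went with the haemoglobin UMIs was not tested.

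The library labelled WT_CD45 2 stood low for Ifitm1. It was at least 2-fold below both other CD45 libraries in 6 of 16 classes for Ifitm1, 3 for Ifitm2, 1 each for Ifitm3 and Ifi27l2a, and 4 of 10 classes for Ifitm6. Over all genes the same order held for 4.65% of gene and class pairs tested. The Ifitm1 classes were Ccr2-high monocytes at 1656, 539 and 1100 CPM, Arg1-high macrophages at 263, 59.3 and 149 CPM, cDC1, NK cells, B cells and S1pr1-high Tconv. The same order held for 0.492% of genes in the Ccr2-high monocytes, 0.609% in the Arg1-high macrophages, 3.02% in cDC1, 8.92% in NK cells, 9.47% in B cells and 9.21% in S1pr1-high Tconv.

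The genes whose class means ran most like those of each member were found over 20 classes of the CD45 libraries, among 4957 genes. Correlations are a description, and the points share libraries and depth. For Ifitm1 they were the pseudogene Gm7676 (Pearson r = 0.93), Ifitm2 (0.87), Ifitm3 (0.84), Orai1 (0.83) and St3gal4 (0.82). For Ifitm2 they were Gm7676 (0.93), Ifitm3 (0.93), Gpr141 (0.89), Cdkn1a (0.87) and Ccdc109b (0.87). Ifitm3 had Slfn5 (0.93), Pnp (0.93), Ifitm2 (0.93), Eps8 (0.93) and Wfdc17 (0.91), and Ifitm6 had Lmo1 (0.92), Gpr141 (0.91), Ear2 (0.91), Gm9733 (0.90) and Gm7676 (0.89). The values for Ifi27l2a were lower, with Pex2 (0.81), Reep3 (0.76), Dck (0.72), Mrps18c (0.72) and Ankrd37 (0.71). Pairs within the Ifitm members had r of 0.75 to 0.93, and Ifi27l2a with them 0.32 to 0.50.

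Gm7676 shares sequence with the members, so its rank is uncertain: 14.4% of the stretches of 50 bases in its transcript were also in Ifitm1 and 10.7% in Ifitm3. The last 300 bases of the members' transcripts, where 3′ libraries are read, shared no stretch of 50 bases with another member. The rest of the families was scarce, apart from Ifi27 with 6978 UMIs over all libraries. Ifitm5 had 35, Ifitm7 138, Ifitm10 369 and Ifi27l2b 119 UMIs, against 55883 for Ifitm1, 57989 for Ifitm2, 172415 for Ifitm3, 8355 for Ifitm6 and 147964 for Ifi27l2a.

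The effect of LAG3 deficiency on the members was tested with edgeR's quasi-likelihood test on UMIs summed per library and class, with Benjamini-Hochberg adjustment over all genes tested. Differences are log2 Lag3KO minus WT ± SE, and the library labelled WT_CD45 2 was counted as its label says. In Tregs, the cells named in the title of the series, no member passed, where 0.136% of 7345 genes did. The differences were 0.26 ± 0.46 for Ifitm1, 0.00 ± 0.19 for Ifitm2, 0.31 ± 0.31 for Ifitm3 and 0.11 ± 0.18 for Ifi27l2a, each with an adjusted p of 1.00. Ifitm6 did not pass the filter on low counts there.

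Behind the small Ifitm1 and Ifitm3 differences in Tregs stood opposite signs in the 2 sorts. Ifitm3 of Tregs was at 138, 182, 304 and 275 CPM in the CD4 libraries, both Lag3KO values above both WT values, and at 483, 204 and 115 CPM in the CD45 libraries, the Lag3KO value below both others. Ifitm1 was at 20.8, 29.8, 64.3 and 45.7 CPM and at 225, 70.1 and 9.56 CPM, with the same order. The 138 Tregs of the CD45 libraries held only 72 Ifitm1 UMIs. In the 37 Tregs of the Lag3KO 1 CD45 library, 1 UMI made 4.78 CPM. The value of 9.56 CPM, and each Ifitm1 difference that uses it, therefore rests on very few UMIs. Within the CD4 libraries edgeR gave 0.86 ± 0.24 for Ifitm3 (adjusted p = 0.707, beside 0.0866% of genes called) and 1.08 ± 0.36 for Ifitm1 (adjusted p = 1.00). Within the CD45 libraries it gave -1.55 ± 0.45 for Ifitm3 (adjusted p = 0.759, beside 0.0247% of genes called) and -3.83 ± 0.96 for Ifitm1 (adjusted p = 0.531). The difference between sorts did not pass either, at -4.91 ± 1.00 for Ifitm1 (edgeR adjusted p = 0.191) and -2.41 ± 0.51 for Ifitm3 (edgeR adjusted p = 0.233), beside 0.0371% of 8085 genes. It passed when single libraries were left out: for Ifitm1 and Ifitm3 the edgeR adjusted p was 0.00885 and 0.0334 without WT_CD4 1, 0.00364 and 0.00770 without WT_CD4 2, and 0.000408 and 0.000328 without the library labelled WT_CD45 2. Lyz2 was at 674, 292 and 287 CPM in Tregs of the CD45 libraries, and its part in these values was not tested.

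In Tconv, edgeR called 0 of 9102 genes (0.0%), while 267 had an unadjusted p under 0.05. DESeq2 also called 0, and 98 had an unadjusted p under that value. All 4 tested members had positive differences, with 1.28 ± 0.26 for Ifitm1 (adjusted p = 0.451), 0.66 ± 0.20 for Ifitm2, 0.65 ± 0.16 for Ifitm3 and 0.35 ± 0.25 for Ifi27l2a (adjusted p = 1.00 each). Ifitm1 of Tconv was at 144, 62.3, 254 and 163 CPM in the CD4 libraries and 225, 155 and 595 CPM in the CD45 libraries, with every Lag3KO value above every WT value of its sort. Few cells made the 595 CPM: among 126 Tconv of that library, 5 Cxcr6-high cells held 183 Ifitm1 UMIs and 1 S1pr1-high cell held 60. Within sorts the Ifitm1 difference was 1.03 ± 0.34 in the CD4 (adjusted p = 1.00, beside 0.0208% of genes called) and 1.67 ± 0.42 in the CD45 libraries (adjusted p = 0.885, beside 0.0% called). It passed without WT_CD4 1 (1.71, adjusted p = 0.0322) and with the holding of haemoglobin UMIs as a further term (1.32, adjusted p = 0.00568). The share of Tconv in the Cxcr6-high class, where Ifitm1 is high, was 27.9, 40.7, 29.9 and 12.6% in the CD4 libraries. It was 46.8, 42.4 and 33.3% in the CD45 libraries, lower in Lag3KO. Ccl1-high Tconv, which also hold Ifitm1, were 12.4, 3.86, 25.3 and 3.17% in the CD4 and 30.2, 32.5 and 31.0% in the CD45 libraries. S1pr1-high Tconv were 15.9, 19.7 and 31.0% in the CD45 libraries. The part of these shares in the Ifitm1 differences was not tested. No member differed by sort in Tconv (0.0% of 9602 genes called by edgeR).

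Within Cxcr6-high Tconv, a fit added after the data were seen, the 4 members again had positive differences and none passed, beside 0.0871% of 4594 genes. These were 1.87 ± 0.38 for Ifitm1 (edgeR adjusted p = 0.0731), 0.76 ± 0.18 for Ifitm2 (0.149), 0.74 ± 0.19 for Ifitm3 (0.234) and 0.50 ± 0.18 for Ifi27l2a (0.711). Ifitm1 was at 161, 107 and 1533 CPM in the CD45 libraries, and within them its difference of 3.51 ± 0.45 (edgeR adjusted p = 0.000211) was the only gene called (0.0189% of 5300). The Lag3KO side of that value is the single library in which 5 cells held 97.3% of the UMIs. In the CD4 libraries the Ifitm1 difference was 1.03 ± 0.32 (edgeR adjusted p = 0.528, beside 0.113% of genes called). Over both sorts Ifitm1 passed without WT_CD4 1 (2.83, edgeR adjusted p = 1.79e-06), without Lag3KO_CD4 1 (2.32, 0.0179) and with haemoglobin as a term (1.98, 0.00533), and Ifitm3 did without WT_CD4 1 (0.99, 0.0316). The difference between sorts was 2.48 ± 0.56 for Ifitm1 (edgeR adjusted p = 0.175, beside 0.0189% of genes called), and it passed without WT_CD4 2 (0.000284), Lag3KO_CD4 1 (0.0256) or Lag3KO_CD4 2 (0.0232).

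The genotype difference of Tregs was then set against that of Tconv, with library as a block. No member passed, beside 0.0695% of 8629 genes. Ifitm1 gave -0.92 ± 0.33 (edgeR adjusted p = 1.00) for Tregs minus Tconv, and Ifi27l2a gave -0.21 ± 0.08. The Ifi27l2a value stayed between -0.31 and -0.13 with any library left out, whereas those of Ifitm1 and Ifitm2 rested on single libraries. Without WT_CD4 1, Ifitm1 (-1.92, edgeR adjusted p = 2.7e-06) and Ifitm2 (-0.87, edgeR adjusted p = 0.0389) passed, whereas without Lag3KO_CD45 1 Ifitm1 was 0.09 and Ifitm2 -0.17 (edgeR adjusted p = 1.00 each).

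Myeloid and other classes were compared over the 3 CD45 libraries, where Lag3KO is 1 library and the spread is that of the 2 libraries labelled WT. No member passed in monocytes (0.0112% of 8962 genes called), macrophages (0.142% of 9159), cDC2 (1.28% of 7522), cDC1 (0.457% of 5473), NK cells (1.36% of 1834) or B cells (0.0368% of 2715). In monocytes the 5 differences lay between -0.29 ± 0.13 for Ifi27l2a and 0.20 ± 0.18 for Ifitm6, with edgeR adjusted p from 0.976 to 0.993. In NK cells Ifi27l2a gave 1.00 ± 0.35 (edgeR adjusted p = 0.209), which became 1.76 without WT_CD45 1 and 0.32 without the library labelled WT_CD45 2. Neutrophils and monocytes or macrophages of the CD4 libraries, fitted after the data were seen, also had no member called, beside 0.861% of 1161 and 0.196% of 3066 genes. In those neutrophils Ifitm1 gave 0.41 ± 0.20 (edgeR adjusted p = 0.327). In the monocytes or macrophages the signs turned with the library left out. Ifitm1 passed without WT_CD4 1 (-0.94, edgeR adjusted p = 0.0143) and was 0.65 without WT_CD4 2 (edgeR adjusted p = 0.456). Ifi27l2a passed without WT_CD4 2 (1.59, edgeR adjusted p = 2.7e-06), which is 1 of the libraries with haemoglobin UMIs, and was -0.52 without WT_CD4 1 (edgeR adjusted p = 0.640).

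Members passed edgeR's threshold in 2 dendritic cell classes, where the Lag3KO side is again 1 library, assumed to vary like the 2 labelled WT, 1 of which goes against its label. These values compare that library with the 2 others, and DESeq2 called none of them. In migratory dendritic cells edgeR called Ifi27l2a (-1.20 ± 0.19, adjusted p = 2.82e-07), Ifitm3 (-1.05 ± 0.19, adjusted p = 1.69e-05) and Ifitm1 (-0.82 ± 0.23, adjusted p = 0.0229) lower in the Lag3KO 1 library, beside 1.53% of 4317 genes, 53 of the 66 lower, and Ifitm2 gave -0.73 ± 0.23 (adjusted p = 0.0766). The Lag3KO value of Ifi27l2a (550 CPM) and Ifitm3 (598 CPM) lay below both others, whereas that of Ifitm1 (362 CPM) lay between them. The Ifitm1 difference was 0.67 without WT_CD45 1 and -1.47 without the library labelled WT_CD45 2. DESeq2 gave adjusted p of 0.178 for Ifi27l2a, 0.942 for Ifitm3 and 1.00 for Ifitm1.

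In plasmacytoid dendritic cells edgeR called Ifitm3 (-0.99 ± 0.21, adjusted p = 0.000649) and Ifitm2 (-1.21 ± 0.33, adjusted p = 0.0204) lower in the Lag3KO 1 library, beside 1.49% of 5249 genes. Of those 78 genes, 74 were lower, so calls in this library ran mostly one way. Ifitm3 was at 465, 651 and 293 CPM and Ifitm2 at 178, 101 and 63.0 CPM, the Lag3KO value being the lowest of each. Lyz2 moved with them, at 2943, 4183 and 797 CPM, as did the 15-gene myeloid list at 280, 334 and 210 of 10000 UMIs, with all 15 genes detected in each library. Their part in the result was not tested. In migratory dendritic cells Lyz2 was at 477, 464 and 377 CPM and the list at 540, 611 and 457 of 10000 UMIs. With DESeq2 or without the filter on low counts, neither Ifitm3 nor Ifitm2 passed in plasmacytoid dendritic cells. Left-out libraries moved Ifitm2 to -0.69 without WT_CD45 1 and Ifitm3 to -0.68 without the library labelled WT_CD45 2.

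**Figure D4:**
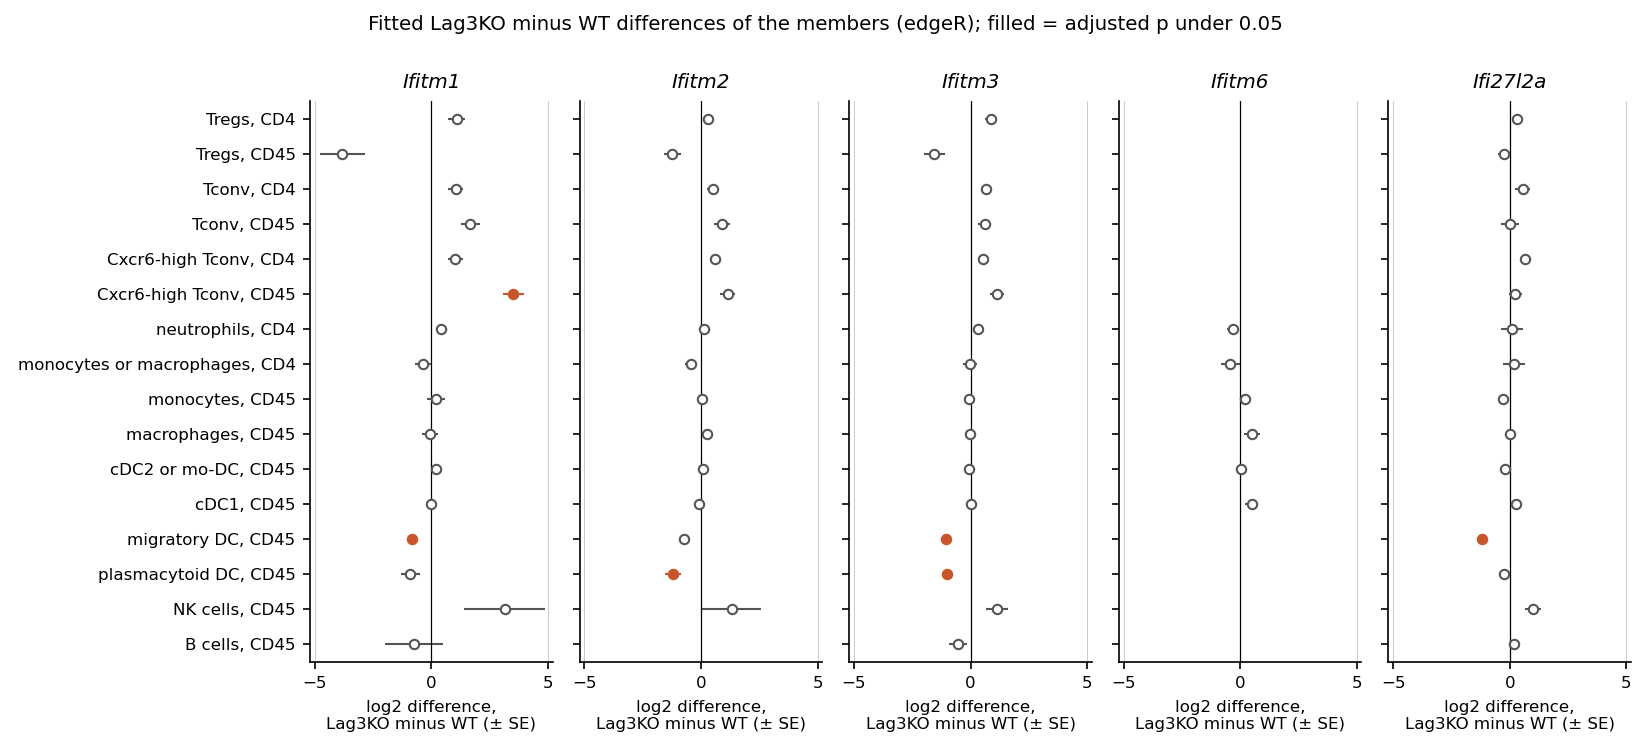
Fitted log2 difference of each member, Lag3KO minus WT ± SE (horizontal axis), in 16 fits of class and sort, with filled symbols for an edgeR adjusted p under 0.05 and mo-DC for monocyte-derived dendritic cells. The Ifitm members of Tregs lie right of 0 in the CD4 and left of 0 in the CD45 libraries, and the filled symbols are those of Cxcr6-high Tconv (CD45), migratory and plasmacytoid dendritic cells.

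The other interferon-induced genes gave a background for the members. Of the 40-gene list, 35 genes were tested in Tregs and none was called, with 30 positive differences and a median of 0.33 against -0.0012 over all genes. In monocytes 38 were tested, none was called, and all 38 differences were negative with a median of -0.44 against -0.0083 over all genes, while the 5 members had both signs there. In migratory dendritic cells 28 were tested and Irf7, a factor that amplifies the interferon response, was called (-1.90 ± 0.34, edgeR adjusted p = 1.18e-05), with 23 negative differences. In plasmacytoid dendritic cells Rsad2, which encodes the antiviral enzyme viperin, was called of 25 tested (-3.85 on the log2 scale, edgeR adjusted p = 0.0126), with 20 negative differences. In Tconv, macrophages, cDC2, cDC1, NK and B cells none of the list was called by edgeR. The list had 18 of 19 positive differences in neutrophils and 31 of 34 in monocytes or macrophages of the CD4 libraries, with no gene called.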

How the data were processed

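The deposited files hold raw UMI counts for each gene in each barcode, made by the authors before deposition with Cell Ranger on GRCm38 (mm10), per the submitters' processing notes, which also name Seurat; the CD4 files name Cell Ranger 3.0.2, per the file headers. The settings of Seurat were not given in those sources. The CD45 files list 694 further genes, which were left out. The members and the lists were chosen with earlier results of these data known.

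Barcodes with under 200 genes or over 10% mitochondrial UMIs were removed, as were simulated-doublet neighbours at 0.8% per 1000 barcodes (221 barcodes). Cells of each sort were clustered with scikit-learn 1.9.0 (2000 variable genes, 30 components, 15 neighbours) and leidenalg (Leiden at resolution 1.0). The Ifitm and Ifi27 genes were left out, and T cells were clustered again without genes that follow the cell cycle. Barcodes with at least 5 T cell transcripts per 10000 UMIs (and 2 UMIs) and 150 myeloid transcripts per 10000 were set apart, as were whole clusters of non-T cells with at least 30% of such barcodes. Class names were given after the clusters were seen.

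For each class, the UMI counts of a library with 20 cells or more were added up. edgeR 4.0.16 (quasi-likelihood, TMM, filterByExpr, two-sided) tested genotype, with sort as a term over both sorts and Benjamini-Hochberg adjustment over all genes tested at 0.05. DESeq2 1.42.0, no filter, a haemoglobin term and each library left out were the alternatives for the tests, and a marker gate, a mean over cells and a stricter limit for mixed barcodes those for levels. Intervals of shares are Clopper-Pearson at 95%, and they and all low counts cover counting error only. Named beside the members were the rest of both families, the 5 genes most like each member among those with at least 50 CPM in a class, and genes of the interferon list past the threshold. On data simulated from these counts with 200 changed genes, edgeR found 59.7% of 2-fold and 97.0% of 4-fold changes in Tregs, 58.2 and 87.9% in Tconv, and 43.3 and 81.8% in monocytes.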

Additional observations from a re-analysis of the deposited data

How the results depend on the processing

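Of 464 recomputed genotype differences of the members, 374 kept their direction with no change of side of the threshold seen. Another 49 were called neither way and had the other sign. The 374 and the 49 include values of the CD45 classes with a library left out. These had no test, so they could not change side. Of the rest, 29 passed only under the alternative, 8 no longer passed, and 3 called values moved by more than their SE with no test. In 1 a called value changed sign: Ifitm1 in migratory dendritic cells, called lower in the main fit, was 0.67 without WT_CD45 1. It was -1.47 without the library labelled WT_CD45 2. Without the filter on low counts, edgeR called 39 instead of 10 genes in Tregs, 55 instead of 0 in Tconv, 17 instead of 3 by sort in Tregs, 18 instead of 0 by sort in Tconv, 80 instead of 1 in monocytes, 65 instead of 13 in macrophages, 39 instead of 66 in migratory and 0 instead of 78 in plasmacytoid dendritic cells, 2 instead of 1 in B cells, 33 instead of 4 in Cxcr6-high Tconv, 12 instead of 1 by sort in these, 46 instead of 10 in neutrophils and 16 instead of 6 in monocytes or macrophages of the CD4 libraries. DESeq2 called 3 genes in Tregs, 1 in Tregs against Tconv (6 with edgeR), 6 in migratory and 1 in plasmacytoid dendritic cells, 4 in neutrophils, and 0 in macrophages, cDC2 (96 with edgeR), cDC1 (25), NK cells (25) and B cells. With the haemoglobin term, 1 gene was called in Tconv and 13 in Cxcr6-high Tconv.

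With a library left out, calls ranged from 1 to 13 in Tregs, 0 to 2 in Tconv, 2 to 12 by sort in Tregs, 0 to 1 by sort in Tconv, 2 to 11 in Tregs against Tconv, 1 to 7 in Cxcr6-high Tconv, 1 to 6 by sort in these, 0 to 101 in neutrophils and 11 to 48 in monocytes or macrophages of the CD4 libraries. The causes were not tested. For the CD45 classes this leaves 1 library per side, so a value was given without a test.

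Under the marker gate the log2 ratios of monocytes to Tconv were 4.08 for Ifitm1, 3.79 for Ifitm2 and 0.21 for Ifi27l2a, those of Tregs to Tconv 2.47, 1.34 and 0.66 for Ifitm1, Ifitm2 and Ifitm3 (the other sign) and 0.26 for Ifi27l2a, and those of neutrophils to Tconv 7.94, 5.03, 3.75 and 10.76 for Ifitm1, Ifitm2, Ifitm3 and Ifitm6. As a mean over cells, the ratios of neutrophils to Tconv were 6.24, 3.67, 3.27 and 8.87. Of 32 level ratios recomputed in these and the other ways, 17 stayed within the spread over libraries. All 63 means with a library left out did, judged against the spread of the same libraries. That outcome was fixed in advance, because leaving out 1 library cannot move a mean beyond the SD of the same libraries. It is therefore no check of the ratios. WT and Lag3KO libraries could not be paired because the labels give the groups no shared replicate numbers. Depth limits Ifitm6 in T cells, where few UMIs were counted, and the classes with about 20 cells.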

Other observations

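The barcodes set apart held a large part of the members' UMIs. In the CD4 libraries, 184 barcodes with T cell and myeloid transcripts together were 2.84% of the cells and held 32.0% of the Ifitm1, 20.8% of the Ifitm3, 14.9% of the Ifitm6 and 7.70% of the Ifi27l2a UMIs. Ifitm1 was at 2188, 2791, 1452 and 2911 CPM in them, above the monocytes or macrophages of the same libraries at 517, 1616, 680 and 982 CPM. The other 121 set apart there did not hold both kinds of transcripts and belonged to the cluster led by Ccl17, H2-Eb1 and H2-Aa. They were 1.87% of the cells and held 18.6% of the Ifitm1 UMIs, at 2152, 4269, 1703 and 2719 CPM. In the CD45 libraries, 1289 barcodes with both kinds were 18.6% of the cells and held 17.8% of the Ifitm1 UMIs, at 869, 199 and 560 CPM. The 544 others set apart were 7.84% of the cells and held 12.4%, at 1026, 287 and 593 CPM.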
